A study of Mus musculus with 6 samples.

Results

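The cytosolic nucleic acid sensors described here are 9 genes chosen by name: the RNA helicases Ddx58, Ifih1 and Dhx58, their adaptor Mavs, the DNA sensor Mb21d1 with its adaptor Tmem173, and Zbp1, Aim2 and Ifi204. All 9 were found, each as 1 of 31617 genes measured by RNA-seq. Macrophages were purified from pancreases of Balb/c mice, wild type in genotype, by cell sorting for CD45, a leukocyte protein, CD11b, an integrin of myeloid cells, and F4/80, a mouse macrophage protein. Caerulein was injected hourly 10 times into the peritoneum, at 100 mg/kg as the series' design text gives it, with harvest on day 1, 3, 4, 5 or 7, and mock mice, taken as day 0, received saline by that text and no treatment by their sample's label. Caerulein is a cholecystokinin analogue that overstimulates acinar cells and causes acute pancreatitis. All mice were fasted the night before, and day 4 is named by its sample's labels and not by the design text. Each day is represented by a single library, a pool of more than 3 mice, so differences between days have no replicate check and were not tested. The intervals below are 95% intervals of read counting and leave out the variation between pools of mice.

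Cells meet foreign or misplaced nucleic acids in the cytosol with a small set of receptors. RIG-I, encoded by Ddx58 and now also named Rigi, and MDA5, encoded by Ifih1, bind viral or other unusual double-stranded RNA and signal through MAVS on mitochondria, while LGP2, encoded by Dhx58, lacks the signalling domains and modulates the other two. Cyclic GMP-AMP synthase, encoded by Mb21d1 (now Cgas), binds DNA and makes a cyclic dinucleotide that activates STING, encoded by Tmem173 (now Sting1). Both routes lead to the kinase TBK1, to interferon regulatory factors and to type I interferon, and interferon in turn induces several of the sensors. ZBP1 binds Z-form nucleic acids and can start necroptosis, AIM2 assembles an inflammasome on DNA, and Ifi204 belongs to the same PYHIN family as Aim2.

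Depth lay between 14853084 reads on day 4 and 25726455 on day 3. Of the genes of the sort, Ptprc (CD45) lay between 7282 and 12626 and Adgre1 (F4/80) between 9671 and 23702 normalised read counts in the 6 libraries. Itgam (CD11b) had 678 on day 4 and 687 on day 5, against 1900 in mock, more than 2-fold lower. None of 10 macrophage markers was at 0 in any library, which does not measure the purity of the sort. RNA of acinar cells differed between libraries: 8 acinar markers summed to 500509 normalised reads in mock, to 43025, 77137, 25911 and 23495 on days 1, 3, 4 and 5, and to 587054 on day 7. In bulk RNA fewer cells of a type and less RNA per cell cannot be told apart. Normalised values below are the deposited read counts divided by a factor per library, ratios are log2 ratios with a pseudocount of 17.8 normalised units, and expressed genes are the 10000 with the highest mean, which took in all 9 sensors. Ranges given as folds carry the same pseudocount. Plain ratios printed with an interval, and ratios of reads within a library, do not.

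Most of the sensors were high on day 1 and day 5 and low on days 3 and 4. Of the 9 sensors, 6 exceeded their mock level by 2-fold or more on day 1 and 0 lay 2-fold below it, where 6.68% of expressed genes were that much higher and 9.58% that much lower. On day 3, 5 of the 9 lay 2-fold or more below mock (background 5.71%) and 0 above it (3.73%), and on day 4 again 5 were lower (8.11%) and 0 higher (3.31%). On day 5, 4 were at least 2-fold higher (3.68%) and 0 lower (6.4%). On day 7 all 9 lay within 2-fold of mock, beside 1.96% of expressed genes higher and 6.57% lower. These 5 comparisons share the 1 mock library, so a value peculiar to that pool would enter each of them.

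Medians over the 9 genes followed the same course. For days 1, 3, 4, 5 and 7 the median log2 ratio to mock was 1.41, -1.18, -1.29, 0.95 and -0.23. The median over all expressed genes was 0.15, 0.08, -0.01, 0.12 and -0.11, a small shift at each time. The day 5 count depended on scaling: 2 genes passed when libraries were centred on the median expressed gene, set to equal totals or quantile normalised, and 1 passed at equal totals without acinar, erythroid and mitochondrial genes. Ifi204 passed under each of these settings, and the day 5 median ran between 0.76 and 0.97 over the 5 alternative settings. The sign of the day 7 median turned with scaling, to 0.06 at the highest.

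**Figure D1:**
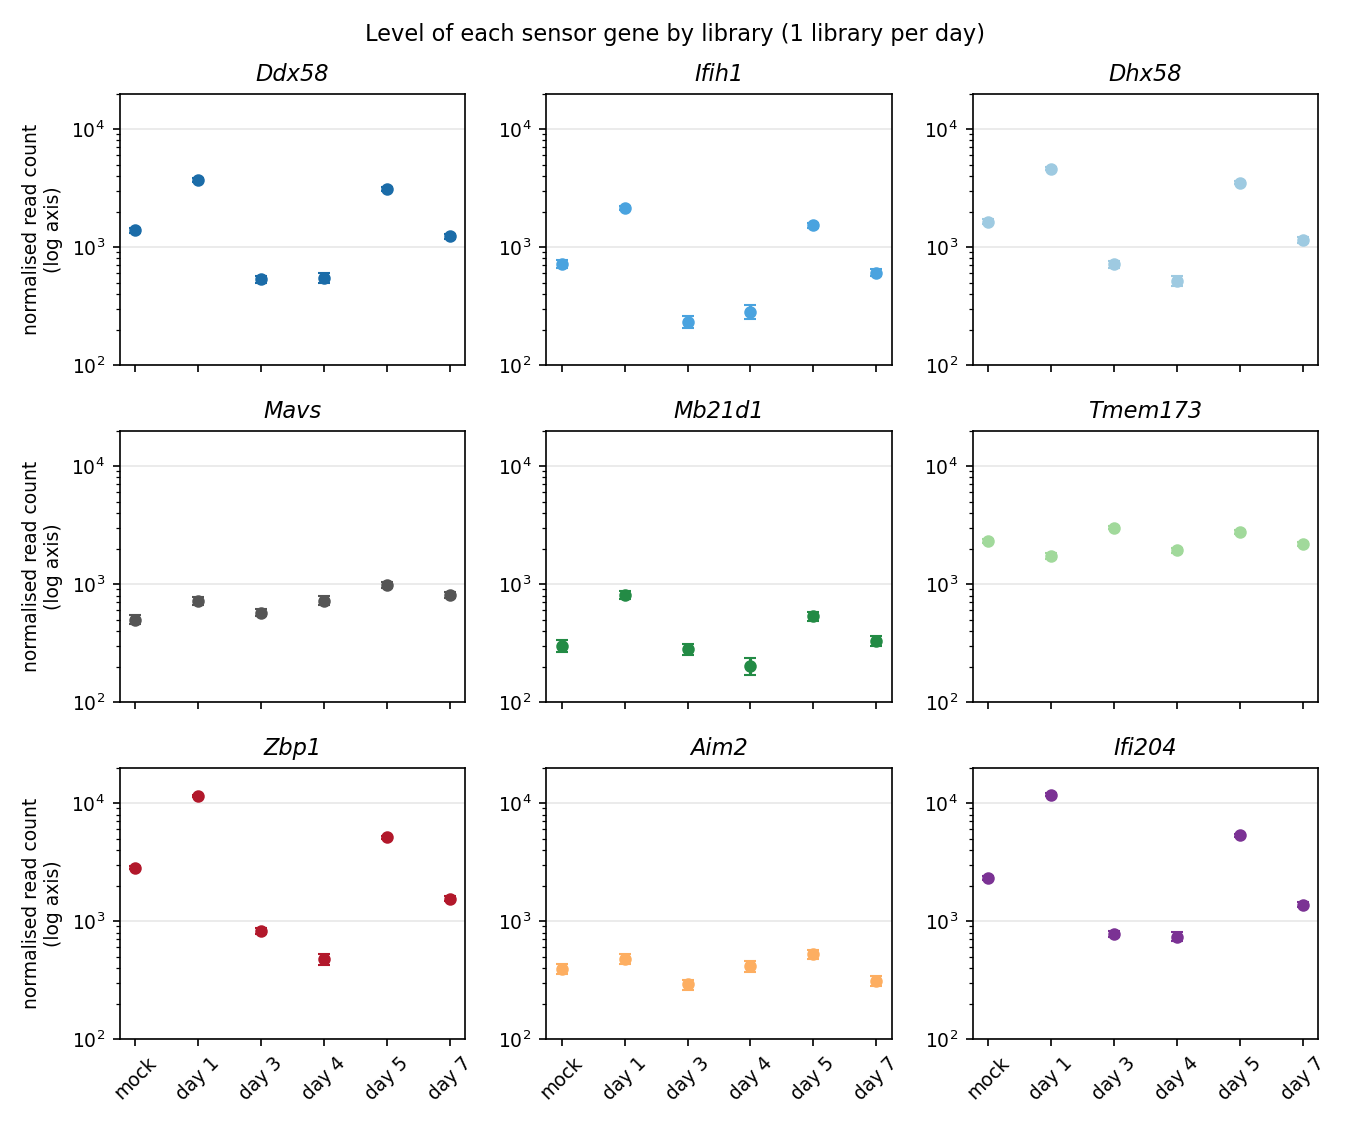
Normalised read count of each sensor gene in the 6 libraries, on a log axis, with bars for the 95% counting interval and 1 library per day. Ddx58, Ifih1, Dhx58, Mb21d1, Zbp1 and Ifi204 have their 2 highest libraries on days 1 and 5, as does Aim2, while Mavs, Tmem173 and Aim2 span less than 2-fold.

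**Figure D2:**
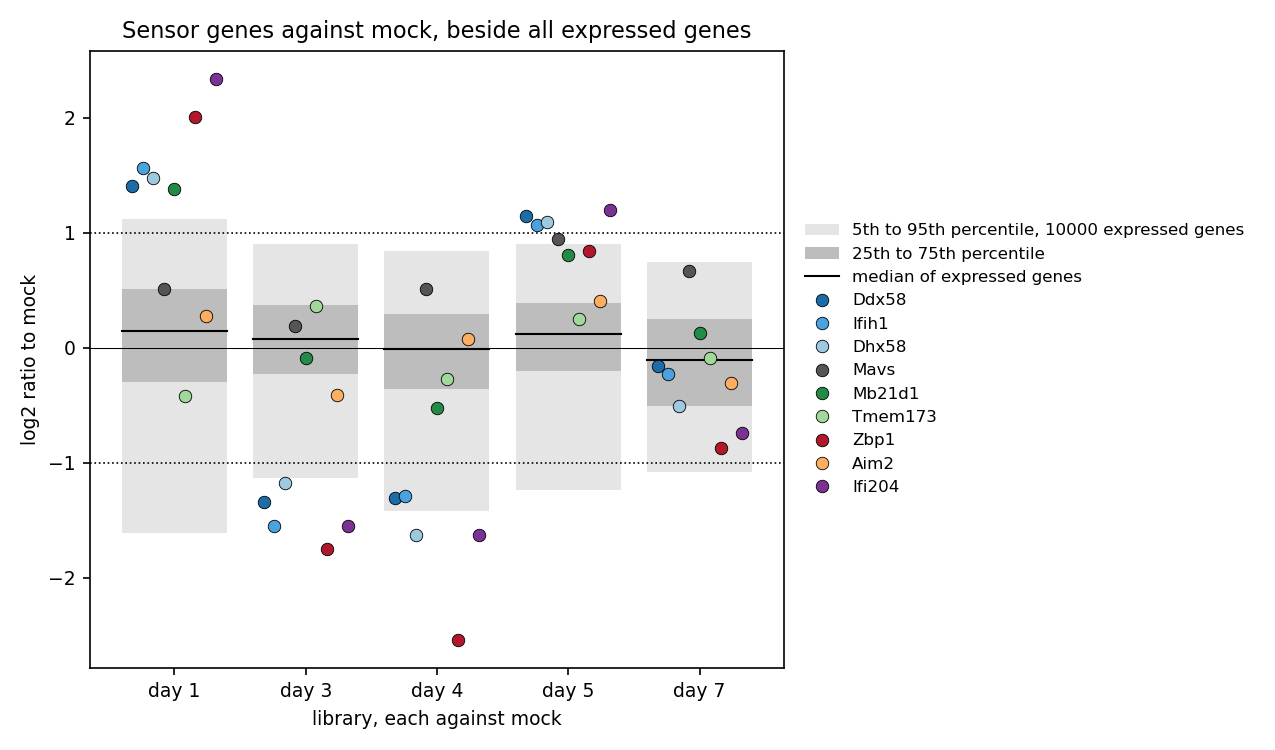
Log2 ratio of each sensor gene to mock for the 5 caerulein libraries, as points, over the spread of the 10000 expressed genes, as grey bars, with dotted lines at 2-fold. On day 1, 6 points lie above the upper 2-fold line, on days 3 and 4, 5 points lie below the lower one, and on day 7 all 9 lie between the lines.

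The 3 helicase genes kept nearly the same order of days. Ddx58 (ENSMUSG00000040296) had 1384 normalised reads in mock and 3696, 535, 549, 3087 and 1237 on days 1, 3, 4, 5 and 7. Ifih1 (ENSMUSG00000026896) had 717 in mock and then 2146, 232, 283, 1529 and 607, and Dhx58 (ENSMUSG00000017830) had 1643 in mock and then 4626, 714, 518, 3515 and 1146. In each of the 3 genes day 1 was the highest library, day 5 the next, then mock and day 7, with days 3 and 4 at the bottom. The counting intervals of neighbours in that order were apart, except that days 4 and 3 overlapped for Ddx58 and for Ifih1. Against mock the RIG-I gene Ddx58 was at 1.41 on day 1 (ratio of normalised reads 2.67, interval 2.51 to 2.85) and at -1.34 on day 3 (0.386, interval 0.353 to 0.422). Ifih1, the gene of MDA5, was at 1.56 on day 1 and at -1.55 on day 3, and Dhx58, the gene of LGP2, at 1.48 and -1.18. On day 5 they were at 1.15 (Ddx58), 1.07 (Ifih1) and 1.09 (Dhx58), near the 2-fold line, and under another scaling at 0.96, 0.88 and 0.90 at the lowest. On day 7 they were at -0.16, -0.23 and -0.51, where the values of Ddx58 and Ifih1 turned positive under another scaling (0.14 and 0.06 at the highest).

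Reads of 2 genes from the same library can be set against each other without any factor between libraries. For each Ifih1 read there were 1.93 Ddx58 reads in mock and 1.72, 2.30, 1.94, 2.02 and 2.04 on days 1, 3, 4, 5 and 7. The widest gap was between day 3 (interval 2.02 to 2.63) and day 1 (1.62 to 1.83), although each gene alone ranged 6.72-fold (Ddx58) and 8.65-fold (Ifih1). Dhx58 reads per Ddx58 read were 1.19 in mock and 1.25, 1.34, 0.943, 1.14 and 0.926 after caerulein. The lower values belonged to days 4 and 7, where the intervals (0.821 to 1.08 and 0.86 to 0.998) lay below that of mock (1.11 to 1.27). Over the 6 libraries Ddx58 and Ifih1 were also the closest pair of the 36 possible pairs of sensors, with a root mean square difference of 0.11 between their centred log2 profiles. The next pairs were Ddx58 with Dhx58 (0.19) and Ifih1 with Dhx58 (0.23).

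Promoters are shown for the pair of RNA sensors with the most similar profiles and for their adaptor Mavs, whose profile differed. Promoters, 250 bases before to 50 after the start, were taken from RefSeq's table (GRCm38.p6) for 5 of the 9 sensors. No entry was found there for Dhx58, Zbp1 and Ifi204, while Tmem173 was left out of the search by choice. Capitals mark each match, on either strand, to GAAA, any 2 bases and GAAA again, the core of the interferon-stimulated response element. The sequences run 5′ to 3′ on the gene's strand and lie at chr4:40239776-40240075 (Ddx58, minus strand), chr2:62646206-62646505 (Ifih1, minus strand) and chr2:131233813-131234112 (Mavs, plus strand).
Ddx58: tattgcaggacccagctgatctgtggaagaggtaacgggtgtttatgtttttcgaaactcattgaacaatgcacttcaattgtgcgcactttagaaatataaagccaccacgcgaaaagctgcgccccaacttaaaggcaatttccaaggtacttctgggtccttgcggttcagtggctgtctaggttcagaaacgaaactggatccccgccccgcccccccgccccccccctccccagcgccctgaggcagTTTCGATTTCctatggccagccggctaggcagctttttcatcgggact
Ifih1: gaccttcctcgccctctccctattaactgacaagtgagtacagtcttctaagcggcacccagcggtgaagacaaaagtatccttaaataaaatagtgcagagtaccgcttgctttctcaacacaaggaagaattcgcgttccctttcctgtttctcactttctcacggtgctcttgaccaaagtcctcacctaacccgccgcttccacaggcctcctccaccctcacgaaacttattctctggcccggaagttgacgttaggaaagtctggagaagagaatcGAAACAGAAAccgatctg
Mavs: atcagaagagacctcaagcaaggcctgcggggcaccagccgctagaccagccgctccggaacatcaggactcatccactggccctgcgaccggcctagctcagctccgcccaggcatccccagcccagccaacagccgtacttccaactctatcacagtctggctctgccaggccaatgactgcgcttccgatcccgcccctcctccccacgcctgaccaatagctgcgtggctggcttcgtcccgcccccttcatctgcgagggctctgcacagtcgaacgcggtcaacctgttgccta
Both RNA sensors held 1 match just after the start, from base 3 to base 12 in Ddx58 (on the opposite strand) and from base 33 to base 42 in Ifih1, counted from 1 at the start. The Mavs window held none, and neither did those of Aim2 and of Mb21d1, listed there as Cgas. The motif was held by 3.44% of all 32851 windows of that length. The letters TTCNNNGAA, the core of the gamma-activated site, which read the same on both strands, were in none of the 5 windows and in 8.3% of all windows. A match of letters describes the window and does not show a bound site.

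Mavs, the adaptor on which RIG-I and MDA5 converge, kept a narrow range. Mavs (ENSMUSG00000037523) had 501 normalised reads in mock and 720, 573, 723, 984 and 806 on days 1, 3, 4, 5 and 7. Day 5 was highest and mock lowest, a range of 1.93-fold with the pseudocount, and 58.5% of expressed genes had a range as wide. The intervals of days 7 and 4, of days 4 and 1 and of day 3 and mock overlapped. Against mock its log2 ratio was 0.95 on day 5 (ratio 1.96, interval 1.76 to 2.19) and 0.67 on day 7, short of 2-fold on each day. Over the alternative scalings day 7 reached 0.96 at the highest. Its log2 ratio of day 7 to day 5 ran between -0.29 and 0.20, so which of these days was highest depended on scaling. Ddx58 reads per Mavs read were 5.13 on day 1 (interval 4.70 to 5.62) but 0.934 on day 3 and 0.758 on day 4 (0.667 to 0.862), with 2.76 in mock, 3.14 on day 5 and 1.54 on day 7. The ratio was lowest on days 3 and 4 and highest on day 1, and since read numbers depend on gene length, it is its course over the days that can be compared.

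The DNA sensor gene Mb21d1 and its adaptor gene Tmem173 took different courses. Mb21d1 (ENSMUSG00000032344), which encodes cyclic GMP-AMP synthase, had 298 normalised reads in mock and 802, 280, 202, 537 and 328 on days 1, 3, 4, 5 and 7. It was highest on days 1 and 5 like the helicases, but day 7 overlapped with mock and mock with day 3 in counting intervals, so day 3 did not stand below mock as it did for the helicases. Its log2 ratio to mock was 1.38 on day 1 (ratio 2.69, interval 2.35 to 3.09), -0.09 on day 3, -0.52 on day 4 and 0.81 on day 5. Tmem173 (ENSMUSG00000024349), the gene of STING, had 2331 in mock and then 1736, 3006, 1936, 2769 and 2192. Day 3 was its highest library and day 1 its lowest, the reverse of the order seen for Ddx58 and Ifih1 at those days. The range was 1.72-fold, as wide in 71.4% of expressed genes, and the ratio of day 3 to day 1 was 1.73 (interval 1.63 to 1.84). Despite this narrow range only mock and day 7 overlapped in counting intervals among neighbours in its order. Tmem173 reads per Mb21d1 read were fewest on day 1, at 2.16 (interval 1.97 to 2.38). They were 7.82 in mock, 10.8 on day 3 (9.70 to 11.9), 9.59 on day 4, 5.16 on day 5 and 6.69 on day 7.

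Zbp1 (ENSMUSG00000027514) had the widest range of the 9. Its level was 2841 normalised reads in mock and 11471, 831, 474, 5116 and 1549 on days 1, 3, 4, 5 and 7. All 6 libraries were apart in counting intervals, with day 1 highest and day 4 lowest, and the range of 23.4-fold was matched or passed by 1.22% of expressed genes. Counting intervals narrow as reads rise, and over the 9 sensors 32 of 45 pairs of neighbours in the order were apart. That share was not counted over all expressed genes. Its log2 ratio to mock was 2.01 on day 1 (ratio 4.04, interval 3.87 to 4.21), -1.75 on day 3, -2.54 on day 4 (0.167, interval 0.149 to 0.186), 0.84 on day 5 and -0.87 on day 7. Zbp1 also ranged further than the RIG-I gene: its reads per Ddx58 read were 3.10 on day 1 and 0.863 on day 4 (interval 0.748 to 0.995), against 2.05 in mock. Day 4 thus had the fewest Zbp1 reads both in level and in relation to Ddx58.

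Aim2 and Ifi204, of the same gene family, parted. Aim2 (ENSMUSG00000037860), whose protein recruits the adaptor ASC to DNA, had 392 normalised reads in mock and 480, 291, 415, 526 and 312 on days 1, 3, 4, 5 and 7. The range was 1.76-fold, as wide in 68.8% of expressed genes. From day 5 at the top, the intervals of days 5 and 1, 1 and 4, and 4 and mock overlapped in turn, and so did those of days 7 and 3 at the bottom. Ifi204 (ENSMUSG00000073489), often taken as a mouse counterpart of human IFI16, had 2320 in mock and then 11821, 780, 739, 5334 and 1380. Its range of 15.6-fold was matched or passed by 2.3% of expressed genes, and only days 3 and 4 overlapped. It had the largest log2 ratio of the 9 on day 1, 2.34 (ratio 5.10, interval 4.87 to 5.33), and was at -1.55, -1.63, 1.20 and -0.74 on days 3, 4, 5 and 7. For each Aim2 read there were 24.6 Ifi204 reads on day 1 and 1.78 on day 4 (intervals 22.3 to 27.3 and 1.55 to 2.05), with 5.92 in mock. The sources used here do not give how reads shared by near-identical genes were counted, so Ifi204 and the other PYHIN genes are uncertain.

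**Figure D3:**
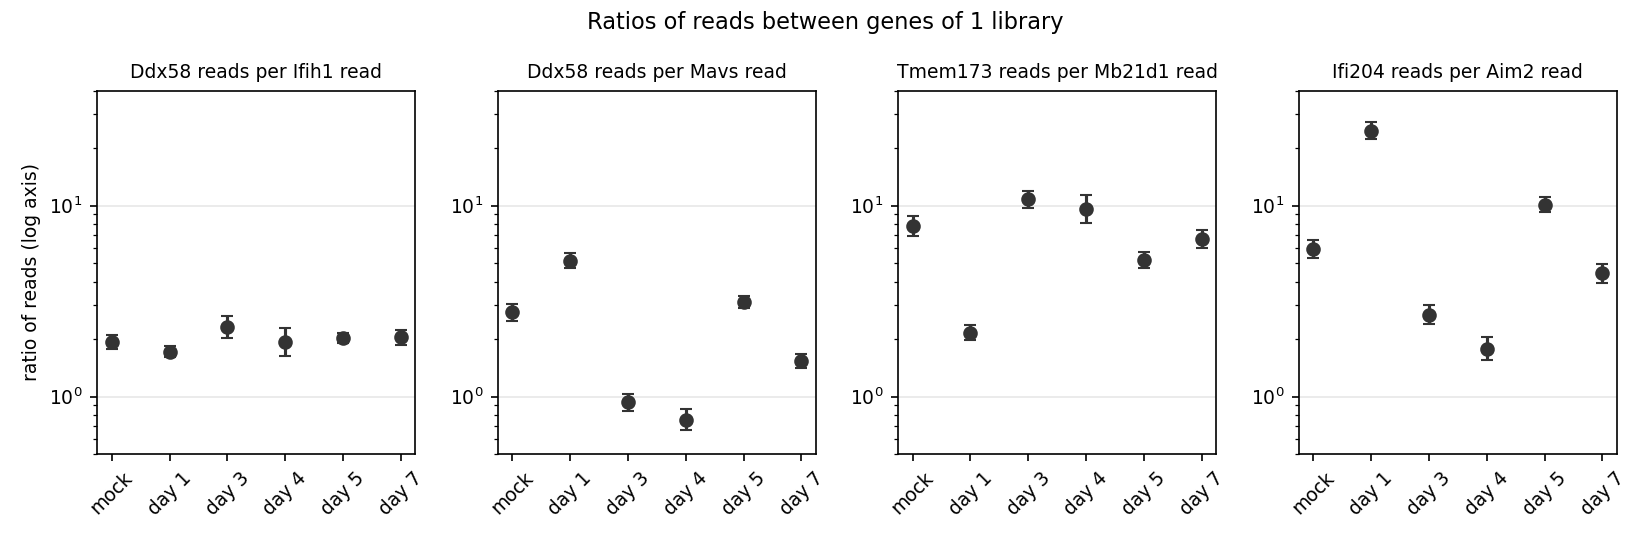
Ratio of reads between pairs of sensor genes within each library, on a log axis, with 95% counting intervals. Ddx58 per Ifih1 stays between 1.72 and 2.30, while Ddx58 per Mavs runs between 0.758 and 5.13, Tmem173 per Mb21d1 between 2.16 and 10.8 and Ifi204 per Aim2 between 1.78 and 24.6.

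Levels per length show which sensors made up most of the sensor RNA. Normalised reads were divided by the exon length of each gene in GENCODE M21, which may differ from the authors' annotation. Summed over the 9 genes, this level per kb was 3427 in mock and 9951, 2196, 1702, 6232 and 2636 on days 1, 3, 4, 5 and 7. On day 1 Ifi204 (33.4%) and Zbp1 (32.7%) held most of the sum and Tmem173 6.37%. On day 3 Tmem173 held 49.9%, with Zbp1 at 10.7% and Ifi204 at 9.98%, and on day 4 it held 41.5%. Mock lay between, with 24.8% for Tmem173, 23.5% for Zbp1 and 19% for Ifi204. The adaptor Mavs was 2.16% of the sum on day 1 and 12.7% on day 4, against 4.37% in mock. Ifih1 held between 1.3% and 3% in each library, the least of the 9 on days 3, 4 and 7 and next to least in mock.

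**Figure D4:**
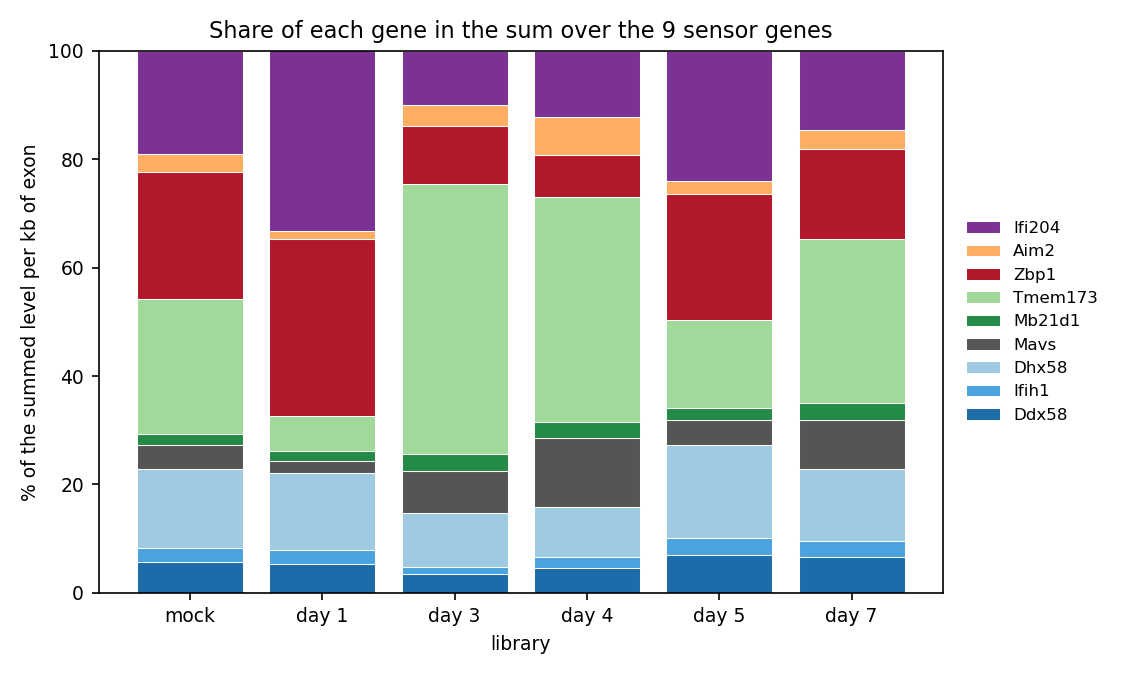
Share of each sensor gene in the summed level per kb of exon over the 9 genes, as stacked bars by library. Tmem173 fills 49.9% of the bar on day 3 and 6.37% on day 1, where Ifi204 and Zbp1 fill most of it.

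Between successive libraries the largest differences lay in 2 steps. In day 3 against day 1, 6 of the 9 sensors were at least 2-fold lower (background 8.21%) and 0 higher (9.72%), with a median log2 ratio of -2.67. Ifi204 was at -3.89 there, Zbp1 at -3.76 and Ifih1 at -3.11. In day 4 against day 3, 0 of the 9 passed 2-fold in either direction (3.23% of expressed genes higher, 5.89% lower). In day 5 against day 4, 6 were at least 2-fold higher (5.4%) and 0 lower (3.11%), with a median of 2.36, led by Zbp1 at 3.39 (ratio 10.8, interval 9.71 to 12.0). In day 7 against day 5, 5 were at least 2-fold lower (4.68%) and 0 higher (5.07%), with a median of -1.31. The count in that last step was 3 at equal totals, with or without acinar, erythroid and mitochondrial genes, where Ddx58 and Ifih1 fell short of 2-fold, and 4 after quantile normalisation, where Ddx58 did. Successive steps share a library and are not independent of each other.

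At a 1.5-fold limit more genes passed, both among the sensors and among all expressed genes. On day 1, 6 sensors were past it upwards (20.8% of expressed genes) and 0 downwards (16.4%), on day 3, 0 (13.3%) and 5 (11%), and on day 4, 0 (10.1%) and 5 (15.4%). On day 5, 7 sensors were higher (13.4%) and 0 lower (11.2%), as Mavs, Mb21d1 and Zbp1 joined, and on day 7, 1 was higher (9.32%) and 2 lower (21.4%). In day 3 against day 1, 1 was higher (18.2%) and 7 lower (18.9%), and in day 4 against day 3, 0 (9.83%) and 2 (14.6%). In day 5 against day 4, 6 were higher (17.5%) and 0 lower (10.3%), and in day 7 against day 5, 0 (8.62%) and 7 (21.5%), with Mb21d1 and Aim2 added to the lower ones. On day 7 the share of the sensors was near that of all expressed genes.

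The pattern of days can be counted for single genes, a count chosen after the values were seen. In 7 of the 9 sensors the 2 highest libraries were days 1 and 5, as in 15.1% of expressed genes. In 6 the 2 lowest were days 3 and 4 (13.3%), and 6 showed both (4.84%). A range of at least 4-fold over the 6 libraries was seen in 5 of the 9, Ddx58, Ifih1, Dhx58, Zbp1 and Ifi204, and in 14.6% of expressed genes.

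Markers of other cells moved with some of these days. For the lists of markers and pathway genes below, the shares of expressed genes past 2-fold on each day are those given above. In lists this short a count of 1 was not read as a difference from those shares. Of 8 monocyte markers 5 were at least 2-fold higher on day 1 than in mock (4 at the lowest under other scalings) and 1 lower. Their summed level was 149090 on day 1, against 60465 in mock. On day 5, when the sensors were high again, 7 of the 8 lay 2-fold or more below mock and the sum was 24293, so the monocyte markers were high in 1 of the 2 libraries with high sensors. The summed level of 10 macrophage markers was 175903 on day 1 and 435008 on day 5, against 216011 in mock. On day 1, 5 of them were at least 2-fold lower and 2 higher, and on day 5, 6 were higher and 0 lower. Over the alternative scalings the count of higher macrophage markers came to 1 at the lowest on day 1 and to 2 on day 5. The sum of 6 plasmacytoid dendritic cell markers was 3123 on day 1 and 4759 on day 5, against 9342 in mock. Most of the mock sum was Klk1, with 6786, against 1037 and 543 on days 1 and 5. Klk1 ranked the 6 libraries in the same order as the summed acinar markers, from day 7 (7814) down to day 5. A part of acinar RNA in Klk1 was not tested. Without Klk1, left out after the values were seen, the other 5 summed to 2086 on day 1 and 4216 on day 5, against 2556 in mock, so day 5 then lay above mock. The defining gene Siglech had 113 normalised reads on day 1 and 500 on day 5, against 240 in mock. NK cell markers summed to 896, 116, 290, 1160 and 5333 on days 1, 3, 4, 5 and 7, against 2523 in mock. Their sum was thus highest on day 7, when all 9 sensors lay within 2-fold of mock. On the same days T cell markers summed to 539, 342, 846, 1355 and 3874, against 2516 in mock. B cell markers summed to 1922, 709, 1062, 1302 and 5795, against 6469 in mock. Among these lists no marker was at 0 reads in any library. The part of these cells in the sensor values was not tested.

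Downstream of the sensors, most signalling genes lay within 2-fold of mock while Irf7 ranged widely. Of 12 signalling genes 3 were at least 2-fold higher on day 1 than in mock (6.68% of expressed genes) and 0 lower (9.58%), with a median of 0.65. The transcription factor gene Irf7, itself induced by interferon, had 11970 normalised reads in mock and 78765, 2159, 1723, 41923 and 10833 on days 1, 3, 4, 5 and 7. The other two higher on day 1 were the kinase gene Ikbke (1.33), which missed 2-fold under 1 other scaling, and the adaptor gene Traf3 (1.07), at 0.79 under another scaling. On day 3 and on day 4, 1 of the 12 was lower, on day 5, 1 was higher, and on day 7 none passed 2-fold. Tbk1, the kinase shared by both routes, had between 1191 and 1777 and Irf3, its substrate, between 919 and 1299 normalised reads in the 6 libraries, ranges under 2-fold.

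Of 10 regulators of the RNA sensors, 2 were at least 2-fold higher (6.68% of expressed genes) and 1 lower (9.58%) on day 1. On day 5, 2 of them were again higher (3.68%) and 1 lower (6.4%). Their median was 0.16 on day 1, with another scaling at -0.12, and 0.28 on day 5. The one that was lower on both days was Rnf125, which encodes a ubiquitin ligase known to mark RIG-I for degradation. Rnf125 had 306 normalised reads in mock and 34.5, 148, 287, 44.7 and 165 on days 1, 3, 4, 5 and 7, with 28 reads counted on day 1 and 43 on day 5. Its 2 lowest libraries were the 2 in which Ddx58 was highest, but on day 3, where Ddx58 was lowest, Rnf125 also lay below mock. A link between the 2 genes was not tested. The log2 ratio of Rnf125 to mock was -2.63 on day 1 and -2.37 on day 5. The helicase gene Ddx60 was at 1.64 and 1.19 on days 1 and 5, missing 2-fold on day 5 under 1 other scaling, and Rnf135, whose product activates RIG-I, at 1.16 and 1.03, with 0.88 and 0.85 under another scaling. Trim25, another ligase of RIG-I, had 1411 in mock and 2258 and 2038 on days 1 and 5, within 2-fold.

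Most other RNA sensors were also high on days 1 and 5. Of 10 listed genes 7 were expressed, and 5 of these were at least 2-fold higher on day 1 (median 1.65), 4 lower on day 3 (-1.37), 5 lower on day 4 (-1.47) and 4 higher on day 5 (1.21). Oas3, an oligoadenylate synthetase that binds double-stranded RNA, had 729 normalised reads in mock and 2620, 102, 82.8, 2172 and 666 on days 1, 3, 4, 5 and 7. Eif2ak2, the kinase PKR, had 657 in mock and 1226 and 1618 on days 1 and 5.

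Of 13 other PYHIN genes 6 were found and expressed, and 4 of them were at least 2-fold higher on day 1 (median 1.96), 4 lower on day 3 (-1.31), 3 lower on day 4 (-0.99), 1 higher on day 5 (0.77) and 2 lower on day 7 (-0.63), of which Ifi202b reached -0.75 under another scaling. Pyhin1 was at 2.43, Mnda at 2.20, Ifi205 at 2.13 and Ifi202b at 1.79 on day 1. On day 5 Mnda was at 1.26 and Ifi205 at -0.07. Ifi205 had 1063 normalised reads on day 5, against 1117 in mock, where Ifi204 had 5334, against 2320.

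STING regulators and nucleases had smaller medians. Of 11 STING regulators 3 were at least 2-fold higher on day 1 (median 0.28, and 0 under another scaling), 1 higher and 1 lower on each of days 3 and 4, 1 higher on day 5 and 0 on day 7. The one on day 5 was Usp18, at 1.12 and under another scaling at 0.93. Enpp1, which encodes the enzyme that degrades the product of cyclic GMP-AMP synthase outside the cell, had 343 normalised reads in mock and 887, 971, 771, 674 and 486 on days 1, 3, 4, 5 and 7. It was above mock in all 5 caerulein libraries, with log2 ratios of 1.33, 1.46, 1.13, 0.94 and 0.48, where day 4 was at 0.90 under another scaling. Usp18, a brake on interferon signalling, was at 2.61 on day 1 and -1.83 on day 3. Of 10 nucleases and editors of RNA or DNA 8 were expressed, with 2 higher on day 1, Adar and Pnpt1, both within 2-fold under another scaling (0.87 and 0.83), 1 higher on day 5, and 1 lower on day 3, day 4 and day 7 each, the last being Rnaseh2b, at -1.16 and under another scaling at -0.89. Adar, which edits double-stranded RNA and so keeps it from MDA5, had 804 in mock and 1815, 402, 281, 1976 and 1238 on days 1, 3, 4, 5 and 7. Samhd1, which depletes deoxynucleotides, was at -1.18 on day 3.

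The partners of AIM2 and ZBP1 did not share one course. Of 6 inflammasome genes 1 was at least 2-fold higher on day 1, Il18 with 2184 normalised reads, against 541 in mock, 1 was lower on day 3 and on day 5, and 3 were lower on day 7. Il1b had 22311 in mock and 12168, 19002, 25029, 8103 and 4602 on days 1, 3, 4, 5 and 7, and was at -2.27 on day 7. Of 5 genes of ZBP1-linked cell death 1 was higher on day 1, 2 were lower and 1 higher on day 4 and 2 were lower on day 7. Mlkl, which encodes the pore-forming effector of necroptosis, was at 1.55 on day 1 and -1.56 on day 4. Ripk3, whose kinase ZBP1 binds, had 2956 normalised reads on day 1, against 1699 in mock, and its log2 ratio was -1.56 on day 4 and -1.43 on day 7. Ripk3, Mlkl and Zbp1 thus all had their highest library on day 1. Their lowest value was that of day 4, but in Ripk3 and Mlkl day 7 was close to it. Ripk3 had 565 on day 4 and 621 on day 7, and Mlkl 113 and 143, so for these genes the 2 days are not set apart. On day 5 Zbp1 was above mock while Ripk3 (918) was below its mock value of 1699. Mlkl was close to mock on that day, with 319 against 368, a log2 ratio of -0.19.

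The median of the interferon-induced effectors was highest on day 1. All 15 were at least 2-fold higher on day 1 than in mock (median 2.18), 13 lower on day 3 (-2.09), 13 lower on day 4 (-2.02), 9 higher on day 5 (1.12) and 6 lower on day 7 (-0.85). Over the alternative scalings these counts came to 13 at the lowest on day 1, 6 on day 5 and 2 on day 7. Parp14 was higher on day 5 than on day 1, at 1390 against 1302 normalised reads. Of 7 genes of interferon receptor signalling 2 were higher on day 1 and on day 5 and 2 lower on day 3 and on day 4, with Irf9 at 1.16 on day 1 and at 0.81 under another scaling. Stat2, part of the factor that interferon activates, was at 1.57, -1.76, -1.54, 1.29 and 0.35 on days 1, 3, 4, 5 and 7, and the receptor gene Ifnar1 had between 2343 and 3243 normalised reads throughout.

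The interferon genes themselves had few reads, and Ifnb1 was highest in mock. Ifnb1, the gene of interferon beta and a main target of both sensing routes, had 232 reads in mock and 17, 15, 9, 10 and 2 on days 1, 3, 4, 5 and 7. Without pseudocount the log2 ratio to mock was -3.40 on day 1 (interval -4.21 to -2.69) and -4.41 on day 5 (-5.49 to -3.51), the 2 libraries with the most sensor RNA. The 8 interferon alpha genes found summed to between 2 and 9 reads per library. Ifng, the gene of the type II interferon, had 115 reads in mock and 16, 25, 26, 64 and 168 on days 1, 3, 4, 5 and 7. It was highest on day 7, with 142 normalised reads (interval 121 to 165), against 110 in mock (90.7 to 132). Of 20 interferon genes listed 13 were found and none was among the expressed genes.

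**Figure D5:**
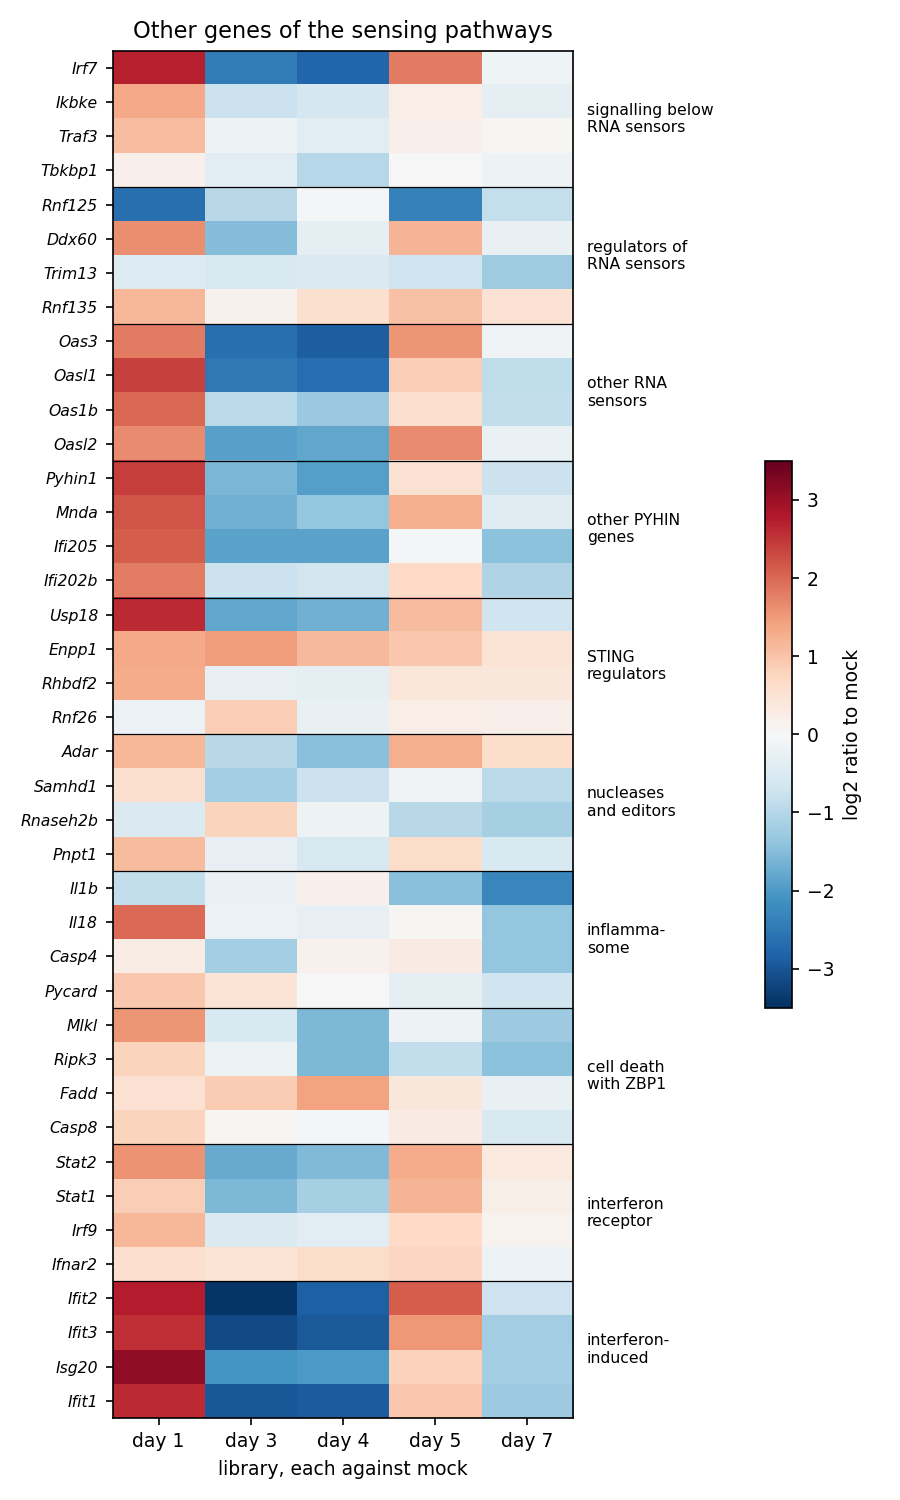
Log2 ratio to mock of up to 4 genes from each of the other lists, with the largest ratios, in the 5 caerulein libraries. Irf7, the Oas genes, Usp18 and the interferon-induced effectors are red (higher) on day 1 and blue (lower) on days 3 and 4, and Rnf125 is blue on days 1 and 5.

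Genes with the most similar profiles were found by the root mean square difference of centred log2 values over the 6 libraries. For Ddx58 they were Ifih1 (0.11), Parp12 (0.15) and Oas2 (0.16). Ifih1 had Ddx58 (0.11), Irgm1 (0.12) and Rnf213 (0.16), and Dhx58 had Pde7b (0.18), Ddx58 (0.19) and Ifih1 (0.23). Zbp1 had Daxx (0.22), Fpr1 (0.27) and Ly6e (0.28), while Ifi204 had Usp18 (0.16), Mnda (0.18) and Phf11d (0.21). Mb21d1 was closest to Max (0.11), Banp (0.14) and Sh3bp2 (0.14). Mavs was closest to Zfp607 (0.04), Esr1 (0.05) and Terf2ip (0.06), Tmem173 to Abcb8 (0.08), Tbc1d31 (0.08) and Lrrc40 (0.09), and Aim2 to Lcor (0.07), Sestd1 (0.07) and Dnajc7 (0.09). The libraries are few, and small differences are common among genes that vary little, as these last 3 sensors do.

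Taking the 5 caerulein libraries as replicates against mock, a count test called none of the 9. In edgeR's quasi-likelihood test with Benjamini-Hochberg adjustment 0 of 14106 genes passed (0%), with 102 at an unadjusted p under 0.05 and none of them a sensor. The lowest unadjusted p of a sensor was 0.177, for Mavs, with an adjusted p of 1. DESeq2 called 0 sensors and 2 of 14106 genes (0.0142%), Ifnb1 (adjusted p 0.0457) and Slc27a1 (0.00461). Mock is 1 pool, so these p-values rest on no replicate of mock and do not show that another mock pool would have the same level. Mavs lay above mock in all 5 caerulein libraries, at log2 ratios between 0.19 and 0.95. The other sensors lay above mock on some days and below it on others, so for them days treated as replicates disagree in sign. The test says nothing of a single day.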

How the data were processed

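RNA-seq was measured in 6 libraries, 1 per day. The deposited values are a normalised signal that the authors made by dividing whole gene counts by 1 factor per library; 100% of values came back as whole reads within 0.01 reads. Bowtie 0.12.2 and the build mm8 are named, without a role, in the submitters' processing notes; the sources used here do not give the counter, annotation or strandedness. Gene names were matched for 31431 IDs (99.4%). A 2-fold log2 ratio with a pseudocount of 17.8, which understates the change of low genes, served as the call. Genes with a mean of at least 74.1 counted as expressed. Intervals were Clopper-Pearson for ratios and exact Poisson for levels, at 95%. Reads carry no molecular identifiers, so intervals cover counting error only. By the Poisson interval a count of 0 had an upper limit between 2.6 normalised reads (day 3) and 4.77 (day 4).

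The sensors and the 24 other lists were chosen with earlier results of these data known. Named were all sensors, the 3 expressed genes nearest to each by profile, leaving out predicted genes, small RNAs, pseudogenes and receptor segments, up to 4 genes of each pathway list with the largest ratio to mock on any day, and the sort genes. Tbk1, Irf3, Trim25, Eif2ak2, Ifnar1, Siglech, Klk1, Parp14, Slc27a1 and the interferon genes fall outside this rule and were chosen after their values were seen. A gene of the other RNA sensors is not reported here. Levels per kb used GENCODE M21 exon lengths. As whole reads could be recovered, R 4.3.3 was used to add edgeR's quasi-likelihood test (4.0.16) and, as an alternative, DESeq2 (1.42.0). Both took 14106 genes with at least 60 reads and treated caerulein libraries of different days as replicates. The edgeR test was checked on simulated data whose changes were the same in every caerulein library. That check does not give the power of the test for days that differ. Other steps used Python 3.11.15, with scipy 1.17.1, numpy 2.4.6, matplotlib 3.10.9 and pandas 2.3.3. Alternatives were the scaling, pseudocount, fold, expression limit and count filter.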

Additional observations from a re-analysis of the deposited data

How the results depend on the processing

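With a pseudocount of 1, 81 of 81 single sensor ratios stayed within their counting interval. Scaling mattered more. Centred on the median expressed gene, the sensor median was 1.30 on day 1, 0.84 on day 5, 2.19 in day 5 against day 4 and -1.12 in day 7 against day 5. At equal totals it was 1.16, -1.47, 0.80 and 0.04 on days 1, 4, 5 and 7, -2.53 in day 3 against day 1 and -0.88 in day 7 against day 5. After quantile normalisation it was 1.14 on day 1, -0.11 on day 7, -2.40 in day 3 against day 1 and -0.97 in day 7 against day 5. At equal totals without acinar, erythroid and mitochondrial genes it was 1.12, -1.33, -1.51, 0.76 and 0.06 on days 1, 3, 4, 5 and 7, -2.52 in day 3 against day 1 and -0.82 in day 7 against day 5. Sensors at least 2-fold higher on day 5 numbered 2 under the first 3 of these scalings and 1 under the last, and those lower in day 7 against day 5 numbered 3 at equal totals with or without those genes and 4 after quantile normalisation. With a 1.5-fold limit 7 were higher on day 5, 1 higher and 2 lower on day 7, 1 higher and 7 lower in day 3 against day 1, 2 lower in day 4 against day 3 and 7 lower in day 7 against day 5. The cause was not tested. No paired analysis was possible because there is 1 library per day. With 1 library a day no replicate could be left out, and in the count test leaving out each caerulein day in turn again called 0 sensors with edgeR.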

Other observations

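Over all genes the unfiltered edgeR test called 0 of 31617 genes, with 566 at an unadjusted p under 0.05, and DESeq2 with the filter had 117 such genes. Fibroblast markers summed to 15512 normalised reads on day 3, against 2984 in mock, and duct markers to 3621 on day 3, against 594 in mock.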
